A study of Homo sapiens with 10 samples.

Results

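Ephrins and semaphorins are guidance cues, proteins that cells display or secrete and that tell neighbouring cells to repel, attract or adhere. Ephrins sit on the membrane (the A class on a lipid anchor, the B class through a transmembrane stretch) and bind Eph receptor tyrosine kinases on a touching cell, and both sides of the contact can signal. Semaphorins signal through plexins, whose intracellular part acts on small GTPases. Most secreted class 3 semaphorins need a neuropilin as the co-receptor that holds them to a plexin, and the neuropilins also bind VEGF proteins. In epithelia the Eph system is known for keeping cell populations apart and for tuning cell contacts, and semaphorins for steering migration and the growth of vessels and ducts.

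The genes described here were taken from the deposited tables by symbol: ephrin A and B genes (8), Eph receptors A and B (14), semaphorins of classes 3 to 7 (20), plexins A to D (9) and neuropilins 1 and 2 (2), each with at least 1 protein-coding transcript. These 53 genes, 28 for ligands and 25 for receptors, were among 60168 genes in all, of which 19660 had a protein-coding transcript.

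Polyadenylated RNA was sequenced from MCF10A, a non-tumorigenic human mammary epithelial line, in 3 groups. MCF10A-YAP5SA cells (2 libraries, A and B) carried a lentiviral vector for YAP5SA, a form of the transcription cofactor YAP in which the serines that Hippo kinases phosphorylate are replaced. MCF10A-TRAM2 cells (4 libraries, A to D) carried a vector with the open reading frame of TRAM2, a protein of the endoplasmic reticulum translocon, and control cells (4 libraries, A to D) an empty vector according to the labels. All were transduced populations, selected with antibiotic, grown in the same serum, EGF, insulin and hydrocortisone medium and harvested just below confluence, so that transduction with a viral vector and drug selection are part of every group. The backbones listed for YAP5SA (blasticidin resistance) and for TRAM2 (puromycin resistance) differ, so the selecting drug may not have been the same in all groups. The labels call the first group's vector only a YAP-overexpression one, and YAP5SA is taken from the paper. The study describes the control cells of its protein measurements as carrying an inactivated YAP. For its RNA sequencing plots, a figure legend names the controls as an empty overexpression vector or a non-targeting guide. Which vector the sequenced controls held is taken here from the labels. The submitters give 3 biological replicates for each condition, which does not match the number of libraries. No source used here says whether libraries came from separate cultures or transductions, so that the p-values below measure the spread between these samples, which may be technical.

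Over genes whose counts were whole in all libraries, control libraries A and C agreed within sampling noise, and so did B and D (chi-square per degree of freedom of 1.002 and 0.9993, against 1.157 to 1.24 for the other control pairs), while over all counts, estimated fractions included, they stood at 1.229 and 1.222. Each pair was summed and counted as 1 sample, which left 2 MCF10A-YAP5SA, 4 MCF10A-TRAM2 and 2 control samples. Libraries held 8489854 to 16314438 estimated counts, and 18018 to 37067 of them fell on the 53 genes. YAP1 was at 337 and 342 CPM (counts scaled to library size, normalized by TMM) in MCF10A-YAP5SA, at 181 to 196 in MCF10A-TRAM2 and at 187 in both control samples. TRAM2 was at 242 and 247 CPM in MCF10A-YAP5SA, at 390, 611, 250 and 460 in the MCF10A-TRAM2 samples A to D, and at 28.4 and 28.9 in control, so the vector's gene was high in each labelled group. ANKRD1, a textbook YAP target, was at 414 and 412 CPM in MCF10A-YAP5SA, at 0.18 to 0.48 in MCF10A-TRAM2 and at 0 and 0.43 in control. The summed level of 12 markers of basal mammary epithelium was 6110 to 6158 CPM in MCF10A-YAP5SA, 6853 to 8830 in MCF10A-TRAM2 and 7851 to 7867 in control, with TP63, EPCAM, CDH3 and CDH1 lower in MCF10A-YAP5SA by 1.97 or more on the log2 scale. That of 9 luminal markers was 2812 to 2870 CPM in MCF10A-YAP5SA, 1500 to 1759 in MCF10A-TRAM2 and 1537 to 1603 in control, mostly KRT8 and KRT18. The tested luminal markers did not share a direction in MCF10A-YAP5SA. GATA3, KRT8 and KRT18 were higher than in control (2.01, 0.96 and 0.595 on the log2 scale). KRT19, FOXA1 and ESR1 were lower (-4.28, -2.95 and -1.01). Fibroblast markers summed to 93.3 to 97.9 CPM in MCF10A-YAP5SA, 80.2 to 95.9 in MCF10A-TRAM2 and 72.5 to 76.7 in control, nearly all FAP, with THY1 at 0 in all samples. Leukocyte markers summed to 49.6 to 55.4 CPM in MCF10A-YAP5SA, 36.7 to 47.9 in MCF10A-TRAM2 and 40.6 to 40.9 in control, nearly all CD68, with CD3E and SPI1 at 0. Neural markers, mostly TUBB3 and MBP, summed to 81.3 to 83.3 CPM in MCF10A-YAP5SA, 103.7 to 110.5 in MCF10A-TRAM2 and 106.0 to 108.2 in control, with SOX10 and NEFL at 0. The part of these markers in the results below was not tested. MCF10A-TRAM2 B stood apart from the other MCF10A-TRAM2 samples on the second principal component (-37.3, against -8.48 to 19.6). The deposited names place the MCF10A-YAP5SA libraries in the first of 2 sequencing runs, and MCF10A-TRAM2 and control libraries in both. MCF10A-YAP5SA was thus set against libraries from both runs, with no term for the run in the fit. The values given below for the first and for the second run rest on different MCF10A-TRAM2 and control libraries.

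The same study designed CRISPR guides against TEAD4 motifs in regions bound by YAP, TAZ and TEAD4 in MDA-MB-231 breast cancer cells. TEAD proteins are the DNA-binding partners of YAP, and their core motif is GGAATG, which reads as CATTCC from the opposite strand. The copy of the guide list used here was shortened, so other guides near these genes are not covered. Of the 1984 guides read, 21 matched within 50000 bases of 7 of the 53 genes, 15 in introns and 6 upstream of EPHA2, and each matched the genome once. The target sites below are shown because they are places near these genes where the study aimed a guide at a TEAD motif. The letters are from GRCh37, on the strand of the guide and 5′ to 3′, with a few flanking bases, and capitals mark the motif on either strand. Positions are those of the guide's own target.
NRP1, intron, chr10:33527057-33527076, plus strand: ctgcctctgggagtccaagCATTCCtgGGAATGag
SEMA3E, intron, chr7:83153816-83153835, minus strand: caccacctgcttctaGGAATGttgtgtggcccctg
EFNA5, intron, chr5:106891102-106891121, plus strand: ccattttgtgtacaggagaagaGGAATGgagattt
EPHA2, upstream, chr1:16500236-16500255, plus strand: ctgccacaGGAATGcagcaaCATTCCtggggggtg
PLXNA2, intron, chr1:208381042-208381061, minus strand: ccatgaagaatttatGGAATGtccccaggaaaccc
PLXNA4, intron, chr7:131976507-131976526, plus strand: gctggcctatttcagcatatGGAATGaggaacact

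The NRP1 and EPHA2 sites hold 2 motifs each, in opposite orientation. The EPHA2 site lies 17672 bases upstream of the gene, and the NRP1 and SEMA3E sites lie 98124 and 124630 bases downstream of their gene's start. SEMA3D also held a matched guide, in an intron. In these samples the 7 genes did not share a direction: between MCF10A-YAP5SA and control NRP1 and SEMA3E rose, PLXNA4 fell, EFNA5, EPHA2 and PLXNA2 were not called, and SEMA3D was too low to test. Near the start sites, GGAATG on either strand lay in 8 of 73 promoter windows of 46 of these genes (11%), against 14% of 34943 windows of all genes in RefSeq (GRCh38.p14; 250 bases before to 50 after a start). The 8 windows belong to EPHA2, PLXNB1, PLXNB3, SEMA3B, SEMA3F and SEMA4A. The AP-1 motif TGANTCA lay in 1 window, of PLXNC1 (1.37%, against 7.72% of all windows).

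A gene was called where edgeR's quasi-likelihood test gave an adjusted p under 0.05 and the log2 fold change was over 0.5 in size. Of the 53 genes, 35 passed the filter on low counts. Between MCF10A-YAP5SA and control, 24 of these 35 were called, against 29.4% of all 15768 genes tested. Among them 8 were called higher (beside 15.3% of all genes) and 16 lower (beside 14.1%). Of 18 tested ligands 3 rose and 11 fell, and of 17 tested receptors 5 rose and 5 fell. The median log2 fold change of the 35 genes was -0.13, with ephrins at -1.32, Eph receptors at 0.01, semaphorins at -0.32 and plexins at 0.19, beside -0.01 over all genes tested. In the first sequencing run alone, 8 were called higher and 15 lower. In bulk RNA, fewer cells that make a transcript and less of it in each cell cannot be told apart.

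**Figure D1:**
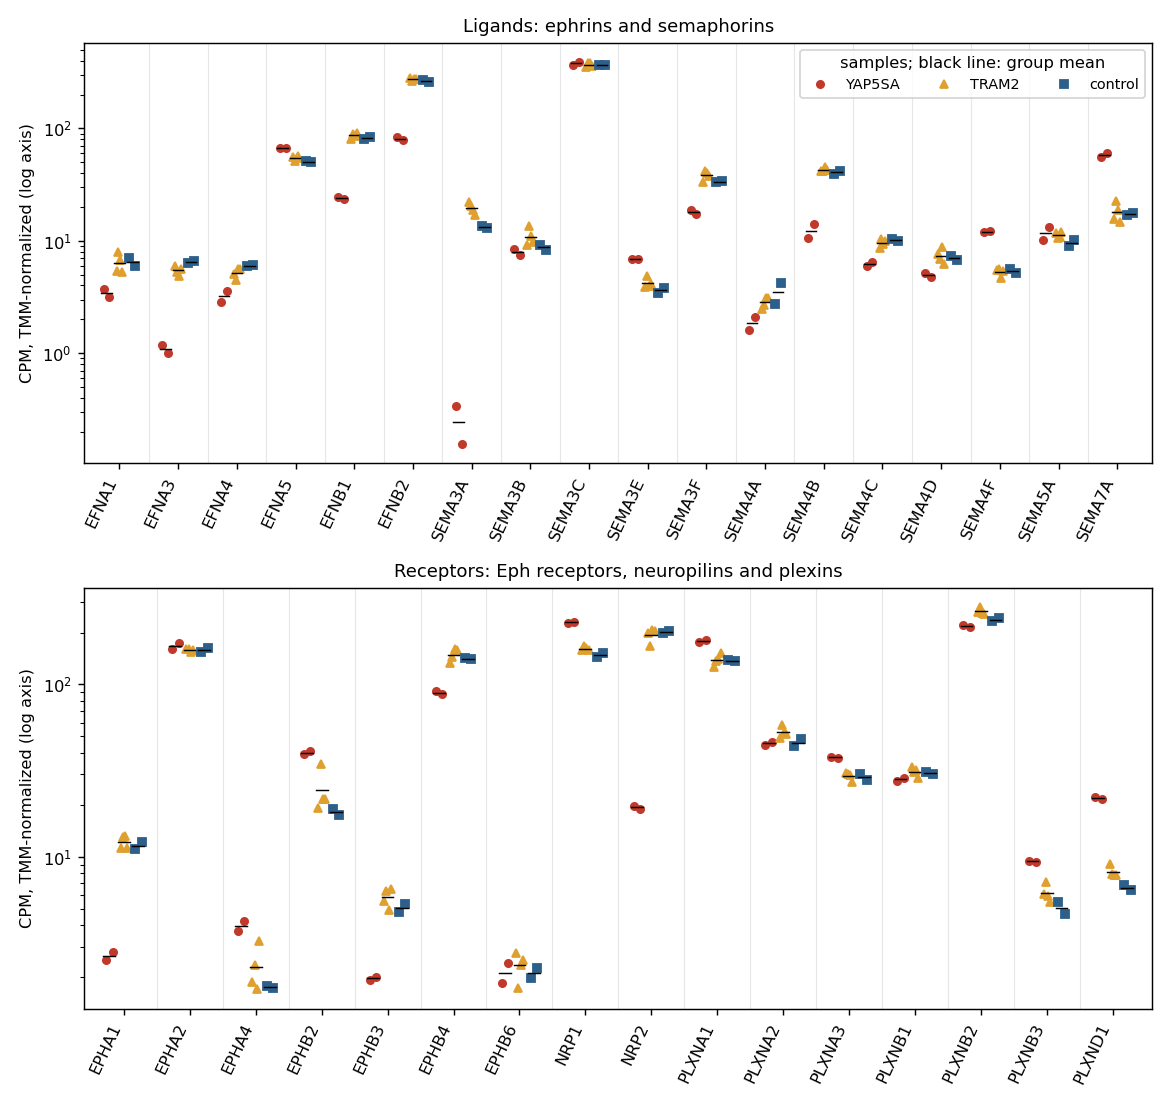
CPM (log axis) of the tested ligands (top) and receptors (bottom) in each MCF10A-YAP5SA, MCF10A-TRAM2 and control sample, with black lines at group means; PLXNA4, at 0 in MCF10A-YAP5SA, is left out. The MCF10A-YAP5SA points of NRP2 (19.68 and 18.97) and SEMA3A (0.34 and 0.15) lie far under the other samples, while the points of SEMA3C and EPHA2 lie close together in all groups.

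Of 6 tested ephrin genes 5 fell in MCF10A-YAP5SA cells and none rose, beside 14.1% of all genes tested called lower. Both abundant B-class ligands were among the 5. EFNA2 and EFNB3 were too low to test. EFNB2, the ligand best known from vessel and duct boundaries, was at 83.7 and 78.4 CPM in MCF10A-YAP5SA A and B, at 283, 263, 273 and 276 in the 4 MCF10A-TRAM2 samples, and at 269 and 260 in the control samples. The MCF10A-YAP5SA samples lay below all others, with a log2 fold change against control of -1.71 ± 0.06 (SE; edgeR, adjusted p = 1.18e-11). EFNB1, the X-linked B-class ligand that sorts cells in the developing skull, was at 24.6 and 23.7 CPM in MCF10A-YAP5SA, at 80.6 to 91.3 in MCF10A-TRAM2 and at 80.8 and 83.9 in control (-1.77 ± 0.07, adjusted p = 1.08e-10 from edgeR). Together the B-class ephrin genes summed to 105.3 ± 4.4 CPM in MCF10A-YAP5SA (SD, n = 2), 360.1 ± 6.8 in MCF10A-TRAM2 (n = 4) and 346.6 ± 4.3 in control (n = 2).

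The A-class ephrins had fewer counts, and not all fell. EFNA3 had 1.18 and 1.01 CPM in MCF10A-YAP5SA, 4.91 to 5.96 in MCF10A-TRAM2, and 6.36 and 6.63 in control, a log2 fold change of -2.57 ± 0.23 in MCF10A-YAP5SA (adjusted p = 3.35e-07, edgeR). EFNA1, first found as a TNF-induced gene of endothelium, was at 3.70 and 3.17 CPM in MCF10A-YAP5SA, 5.30 to 7.94 in MCF10A-TRAM2, and 7.09 and 5.98 in control (-0.93 ± 0.23, adjusted p = 0.0034). EFNA4 was at 2.86 and 3.56 CPM in MCF10A-YAP5SA, 4.49 to 5.63 in MCF10A-TRAM2, and 5.95 and 6.03 in control (-0.89 ± 0.20, adjusted p = 0.0017). EFNA3 and EFNA4 are neighbours that an annotated readthrough gene overlaps, so the split of counts between them is uncertain. EFNA5, the A-class ligand with the most counts, went the other way by a smaller amount: 67.0 and 66.9 CPM in MCF10A-YAP5SA, 51.4 to 56.9 in MCF10A-TRAM2, and 51.0 and 49.8 in control. Its groups did not overlap, and its log2 fold change of 0.41 ± 0.06 had an adjusted p of 9.85e-05 (edgeR) but lay under the 0.5 needed for a call. With EFNA5 included, the A-class sum was 74.7 ± 0.1 CPM in MCF10A-YAP5SA, against 71.5 ± 1.8 in MCF10A-TRAM2 and 69.5 ± 1.4 in control (SD, n = 2, 4 and 2). Per length, over protein-coding transcripts, EFNA5 was at 8.08 TPM in MCF10A-YAP5SA, against 6.74 in MCF10A-TRAM2 and 5.82 in control. EFNB2 was at 4.42 TPM in MCF10A-YAP5SA, against 15.6 in MCF10A-TRAM2 and 14.8 in control. By this TPM the order of the 2 ephrins differed between the groups, while by CPM EFNB2 was above EFNA5 in every sample. The CPM ratio of EFNA5 to EFNB2 was 0.80 and 0.85 in MCF10A-YAP5SA, 0.20 to 0.21 in MCF10A-TRAM2 and 0.19 in both control samples.

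Among the 7 tested Eph receptors 2 rose and 3 fell (71.4% called, beside 29.4% of all genes tested). EPHA2, the receptor of most epithelial cells and the Eph gene with the highest level here, was at 160 and 174 CPM in MCF10A-YAP5SA, 154 to 161 in MCF10A-TRAM2, and 153 and 163 in control. These overlap, and the log2 fold change of 0.08 had a 95% interval of -0.04 to 0.20. EPHB4, the receptor that pairs with EFNB2 on veins, was at 91.2 and 87.7 CPM in MCF10A-YAP5SA, 133 to 160 in MCF10A-TRAM2, and 142 and 140 in control (-0.66 ± 0.08, adjusted p = 1.73e-05, edgeR). EPHB2, a B-class receptor of the intestinal crypt base, was at 39.4 and 41.0 CPM in MCF10A-YAP5SA, at 19.1, 34.7, 21.6 and 21.6 in the MCF10A-TRAM2 samples A to D, and at 18.9 and 17.4 in control. Only MCF10A-TRAM2 B came near the MCF10A-YAP5SA samples. Its log2 fold change in MCF10A-YAP5SA was 1.15 ± 0.27 (adjusted p = 0.013, edgeR), and without either control sample, without MCF10A-YAP5SA B or without a filter on low counts it no longer passed.

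The remaining Eph receptors had few counts. EPHA1 was at 2.52 and 2.79 CPM in MCF10A-YAP5SA, 11.3 to 13.1 in MCF10A-TRAM2, and 11.0 and 12.2 in control (-2.12 ± 0.17, adjusted p = 1.04e-07, edgeR). Its gene overlaps ZYX and EPHA1-AS1 on the other strand, and no source used here says whether the counting used strand. ZYX rose (0.59, adjusted p = 4.90e-06, edgeR), the opposite direction to EPHA1. EPHB3 was at 1.93 and 2.01 CPM in MCF10A-YAP5SA, 4.91 to 6.50 in MCF10A-TRAM2, and 4.76 and 5.33 in control (-1.35 ± 0.23, adjusted p = 0.00018). EPHA4, which unlike most Eph receptors binds ligands of both classes, was at 3.70 and 4.26 CPM in MCF10A-YAP5SA, 1.70 to 3.22 in MCF10A-TRAM2, and 1.79 and 1.72 in control (1.18 ± 0.30, adjusted p = 0.0047). EPHB6, whose kinase domain lacks activity, was at 1.85 to 2.40 CPM in MCF10A-YAP5SA and 1.97 to 2.26 in control, with an interval of -0.62 to 0.65 for its log2 fold change, and it was called higher with length-scaled counts alone (1.15). The other 7 (EPHA3, EPHA5, EPHA6, EPHA7, EPHA8, EPHA10 and EPHB1) were not tested, and EPHA6 and EPHA7 had no count in any library.

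The neuropilins went in opposite directions. NRP2, the co-receptor for SEMA3F and for VEGFC, was at 19.68 and 18.97 CPM in MCF10A-YAP5SA A and B, at 199, 166, 208 and 204 in the MCF10A-TRAM2 samples A to D, and at 199 and 204 in control. Its log2 fold change of -3.38 ± 0.11 (adjusted p = 7.96e-10, edgeR) was a 10.4-fold lower level in MCF10A-YAP5SA. NRP1, the co-receptor for SEMA3A and VEGFA, was at 228 and 230 CPM in MCF10A-YAP5SA, at 158, 166, 162 and 158 in MCF10A-TRAM2, and at 145 and 151 in control, a log2 fold change of 0.63 ± 0.05 (adjusted p = 1.23e-07, edgeR). Both MCF10A-YAP5SA samples lay outside the range of the others for both genes. The ratio of NRP1 to NRP2 CPM within a sample was 11.6 and 12.1 in MCF10A-YAP5SA, 0.77 to 1.00 in MCF10A-TRAM2, and 0.73 and 0.74 in control, while the sum of both was 248 ± 0.8 CPM in MCF10A-YAP5SA, against 355 ± 16 in MCF10A-TRAM2 and 349 ± 7.7 in control (SD, n = 2, 4 and 2). Per length, over protein-coding transcripts, NRP1 was at 73.8 TPM in MCF10A-YAP5SA and 45.2 in control, and NRP2 at 1.90 TPM in MCF10A-YAP5SA and 25.8 in control. Each of the 5 protein-coding NRP2 transcripts with at least 20 counts was lower in mean TPM in MCF10A-YAP5SA, such as NRP2-201 at 0.30, against 4.15 in control, and NRP2-204 at 0.57, against 4.22. The sum of 8 marker genes of endothelium, a cell type known for neuropilins, was 3.03 to 3.17 CPM in MCF10A-YAP5SA, 11.99 to 17.7 in MCF10A-TRAM2 and 9.70 to 10.7 in control. Most of it was PECAM1 and KDR, with VWF, CLDN5 and ERG at 0 throughout. PECAM1 was at 0.25 CPM in MCF10A-YAP5SA and 7.70 in control, and KDR at 1.85 and 2.32. TEK went the other way, at 0.84 CPM in MCF10A-YAP5SA and 0.12 in control. The part of the sum in the neuropilin result was not tested.

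**Figure D2:**
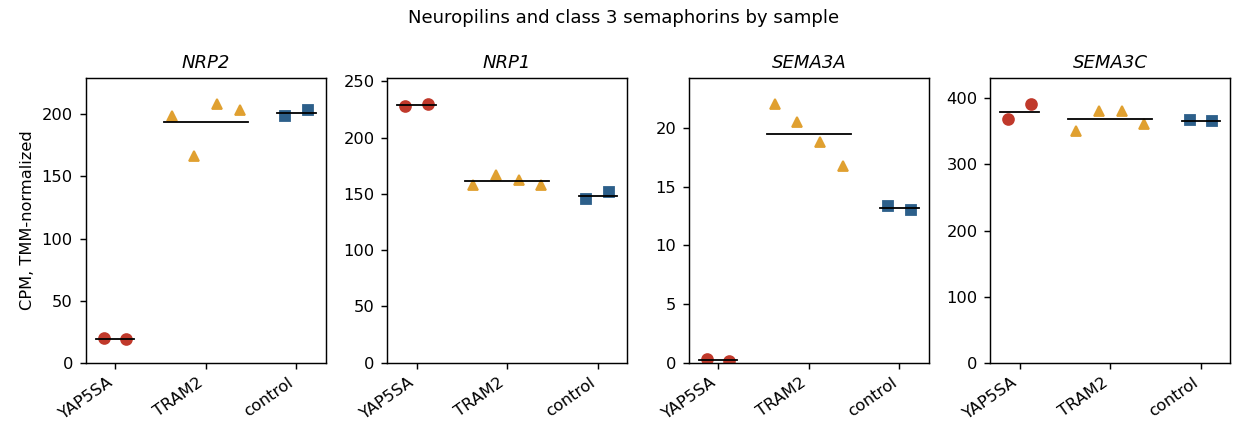
TMM-normalized CPM of NRP2, NRP1, SEMA3A and SEMA3C in each MCF10A-YAP5SA, MCF10A-TRAM2 and control sample (points, from 0 on each axis), with lines at group means. NRP2 stood near 19 CPM in MCF10A-YAP5SA and at 166 to 208 elsewhere, NRP1 was highest in MCF10A-YAP5SA, and SEMA3A was near 0 there and at 16.8 to 22.1 in MCF10A-TRAM2, above both control samples.

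Among secreted class 3 semaphorins, which signal through these co-receptors, 1 of 5 tested genes rose and 2 fell. That was 60.0% called, beside 29.4% of all genes tested. SEMA3A, the founding repellent cue and an NRP1 ligand, was at 0.34 and 0.15 CPM in MCF10A-YAP5SA, at 22.1, 20.5, 18.8 and 16.8 in the MCF10A-TRAM2 samples A to D, and at 13.41 and 13.04 in control. MCF10A-YAP5SA cells held 6 counts in all and control cells 535, a ratio of 0.0183 after scaling by library size (95% exact binomial interval 0.00667 to 0.04, for counting error only), and the fitted log2 fold change was -5.73 ± 0.30 (adjusted p = 1.12e-09, edgeR). SEMA3C, the semaphorin with the highest level, was at 369 and 391 CPM in MCF10A-YAP5SA, 351 to 382 in MCF10A-TRAM2, and 367 and 365 in control. Its interval ran from -0.06 to 0.17 on the log2 scale. SEMA3F, the NRP2 ligand, fell with its co-receptor: 18.7 and 17.3 CPM in MCF10A-YAP5SA, 33.3 to 42.2 in MCF10A-TRAM2, and 33.0 and 33.7 in control (-0.89 ± 0.11, adjusted p = 7.62e-06, edgeR). SEMA3E, which binds PLXND1 with no need for a neuropilin, was at 6.90 and 6.89 CPM in MCF10A-YAP5SA, 3.87 to 4.83 in MCF10A-TRAM2, and 3.43 and 3.83 in control (0.93 ± 0.18, adjusted p = 0.00075). SEMA3B, at 7.51 to 8.41 CPM in MCF10A-YAP5SA and 8.24 to 9.20 in control, had an interval of -0.53 to 0.25.

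The membrane-bound class 4 semaphorins mostly fell, 4 of 5 tested, with SEMA4F rising (beside 14.1% of all genes tested called lower and 15.3% higher). SEMA4B had the most counts of them, with 10.51 and 14.01 CPM in MCF10A-YAP5SA, 41.7 to 45.0 in MCF10A-TRAM2, and 39.6 and 42.0 in control (-1.73 ± 0.11, adjusted p = 6.32e-09, edgeR). SEMA4C, a PLXNB2 ligand, was at 5.97 and 6.50 CPM in MCF10A-YAP5SA, 8.57 to 10.4 in MCF10A-TRAM2, and 10.4 and 9.86 in control (-0.70 ± 0.14, adjusted p = 0.00093). SEMA4A was at 1.60 and 2.09 CPM in MCF10A-YAP5SA, 2.46 to 3.09 in MCF10A-TRAM2, and 2.75 and 4.20 in control (-0.90 ± 0.28, adjusted p = 0.017). The call of SEMA4A was lost under 6 alternatives, DESeq2 and the first run alone among them, and that of SEMA4D, the PLXNB1 ligand (-0.50, adjusted p = 0.034, at the threshold), under 10, with estimates from -0.78 to -0.43. SEMA4F was at 12.02 and 12.15 CPM in MCF10A-YAP5SA, 4.66 to 5.59 in MCF10A-TRAM2, and 5.58 and 5.17 in control (1.17 ± 0.15, adjusted p = 1.13e-05). In sum, the class 4 genes had 37.9 ± 2.8 CPM in MCF10A-YAP5SA, against 68.3 ± 1.9 in MCF10A-TRAM2 and 67.1 ± 1.8 in control (SD, n = 2, 4 and 2).

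SEMA7A, the lipid-anchored semaphorin that signals through integrin beta 1 as well as PLXNC1, rose in MCF10A-YAP5SA by about as much as PLXND1, described below. It was at 55.9 and 60.0 CPM in MCF10A-YAP5SA, at 15.5, 22.6, 18.8 and 14.8 in the MCF10A-TRAM2 samples A to D, and at 16.9 and 17.5 in control (1.75 ± 0.15, a 3.37-fold higher level, adjusted p = 6.91e-06, edgeR). Its receptor gene PLXNC1, with 9 counts over the MCF10A-YAP5SA samples, 22 over MCF10A-TRAM2 and 10 over control, was not tested. SEMA5A, with an interval of 0.00 to 0.61, was not called, and SEMA3D, SEMA3G, SEMA4G, SEMA5B and the 4 class 6 genes (SEMA6A to SEMA6D) were too low to test.

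Of 8 tested plexins 2 rose and 1, PLXNA4, fell. That was 37.5% called, near the 29.4% of all genes tested. PLXNA4 passed the filter on low counts only through the groups that express it, and with a filter of at least 1 CPM in 2 samples, it was not tested. PLXNB2, the plexin with the highest TPM over protein-coding transcripts in every group, was at 220 and 215 CPM in MCF10A-YAP5SA, 256 to 281 in MCF10A-TRAM2, and 233 and 242 in control (-0.12, interval -0.24 to -0.01, adjusted p = 0.074, edgeR). PLXND1, a plexin with a known part in vessel patterning, was at 22.3 and 21.8 CPM in MCF10A-YAP5SA, at 9.01, 7.94, 7.87 and 7.83 in MCF10A-TRAM2, and at 6.82 and 6.41 in control (1.73 ± 0.12, 3.32-fold, adjusted p = 1.97e-08, edgeR). Receptor and ligand of the PLXND1 and SEMA3E pair thus both rose. PLXNB3 was at 9.502 and 9.290 CPM in MCF10A-YAP5SA, 5.49 to 7.11 in MCF10A-TRAM2, and 5.45 and 4.63 in control (0.89 ± 0.16, adjusted p = 0.00039). PLXNA1 and PLXNA3, partners of the neuropilins, were 0.39 and 0.38 higher on the log2 scale (adjusted p = 0.00035 and 0.0011, edgeR) and so under the size needed for a call. PLXNA2 and PLXNB1 had intervals of -0.19 to 0.17 and -0.31 to 0.06. PLXNA4 had no count in either MCF10A-YAP5SA sample, 43 over the MCF10A-TRAM2 samples and 24 over the control samples. With 3 counts put in place of 0 over the MCF10A-YAP5SA samples, PLXNA4 was 4.91-fold lower than in control. That value leaves out the counting error of the control counts. The ratio to control after scaling by library size was 0, with a 95% exact binomial interval of 0 to 0.271, for counting error only. The PLXNA4 levels in MCF10A-YAP5SA and control were under 1 CPM.

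**Figure D3:**
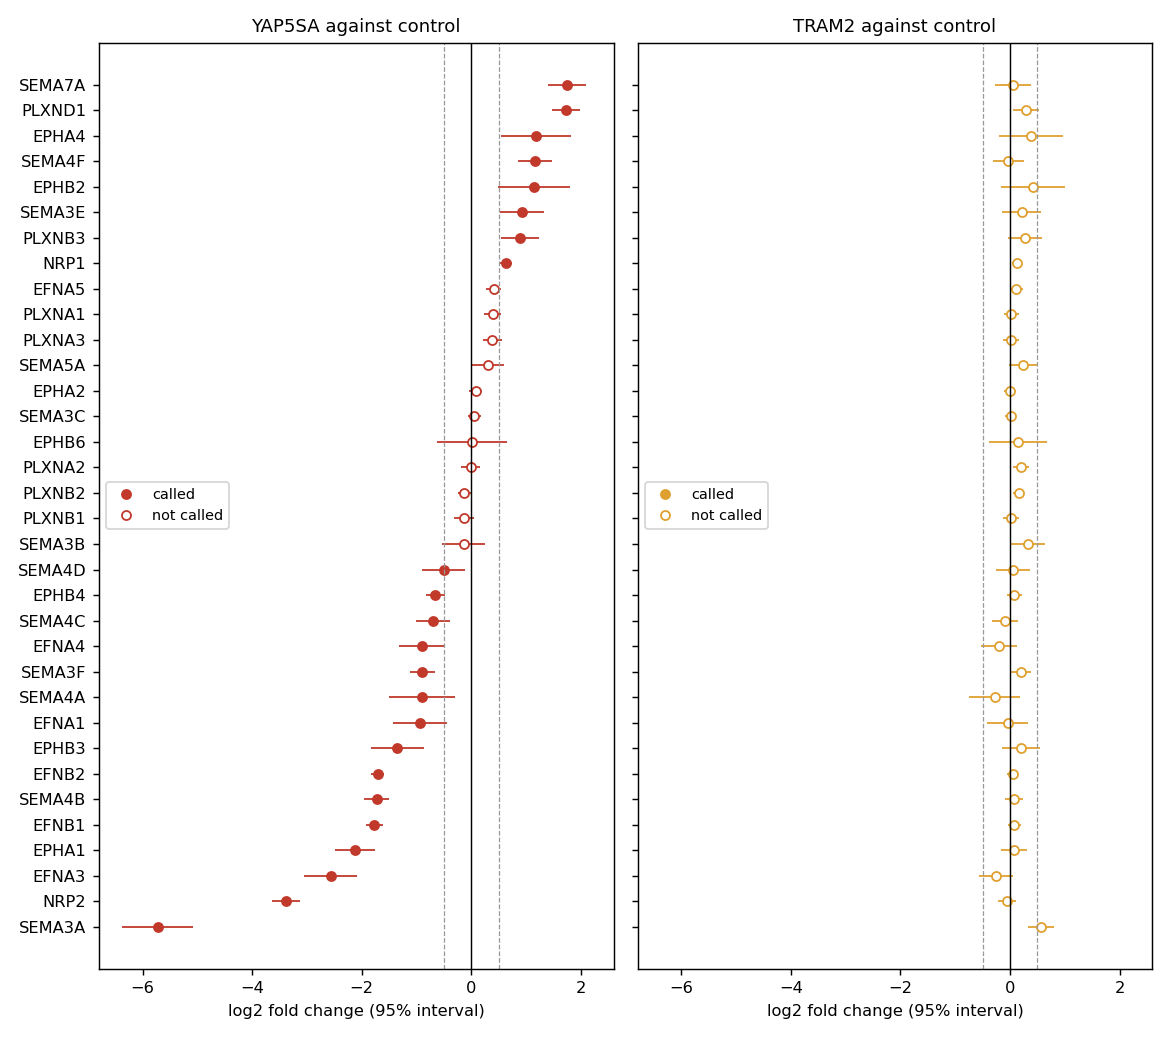
Log2 fold changes of 34 tested genes (all but PLXNA4) with 95% intervals in MCF10A-YAP5SA against control (left) and MCF10A-TRAM2 against control (right), ordered by the left panel; filled points passed both thresholds and dashed lines mark a size of 0.5. The left panel spans -5.73 for SEMA3A to 1.75 for SEMA7A, while no point of the right panel is filled.

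Between MCF10A-TRAM2 and control, none of the 35 genes was called, beside 0.0571% of all genes tested (9 of 15768, edgeR). The vector's own gene TRAM2 missed the call too, with a log2 fold change of 3.90 and an adjusted p of 0.072 (edgeR). Its level ran from 250 to 611 CPM among the MCF10A-TRAM2 samples. The test thus had little reach for genes that varied that much, and a missing call does not show that a gene was unchanged. DESeq2 called 1, SEMA3A. At an unadjusted p under 0.05 there were 7 of 35, beside 12.6% of all genes. These were SEMA3A, PLXNB2, PLXNA2, NRP1, PLXND1, SEMA3F and SEMA3B, and each was higher in MCF10A-TRAM2. SEMA3A came closest, with all 4 MCF10A-TRAM2 samples (16.8 to 22.1 CPM) above both control samples (13.41 and 13.04), a log2 fold change of 0.56 (interval 0.32 to 0.80) and an adjusted p of 0.064. It was called by DESeq2, with the 10 libraries taken as separate samples, with no filter on low counts, without MCF10A-TRAM2 B or D, and in the first sequencing run alone. Within the first sequencing run its log2 fold change was 0.78 (adjusted p = 0.032, edgeR) and within the second 0.33 (adjusted p = 0.13). Over all alternatives its adjusted p ran from 0.00011 to 0.75. SEMA3A fell in MCF10A-YAP5SA, and in the direct comparison of MCF10A-YAP5SA with MCF10A-TRAM2 its log2 fold change was -6.29 (adjusted p = 8.72e-11). Of the 35 estimates against control, 28 were above 0, beside 49.7% of all genes tested, and their median was 0.08, beside 0.00 over all genes. Wide intervals, such as those of EPHA4 (-0.20 to 0.96), EPHB2 (-0.17 to 1.00) and SEMA4A (-0.75 to 0.19), leave room for changes past the threshold. For EFNB2 (-0.05 to 0.15), EPHA2 (-0.10 to 0.10), NRP2 (-0.22 to 0.12) and SEMA3C (-0.09 to 0.11) they do not.

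Set directly against MCF10A-TRAM2, MCF10A-YAP5SA cells had 8 genes called higher and 15 lower of the 35, beside 29.4% of all genes called in either direction. SEMA4A was the gene called against control and not here (-0.62, adjusted p = 0.063, edgeR). Besides PLXNA4, the largest differences were those of SEMA3A, NRP2 (-3.33, adjusted p = 4.23e-10) and EFNA3 (-2.31, adjusted p = 5.18e-07) among falls, and of SEMA7A (1.69, adjusted p = 2.29e-06) and PLXND1 (1.43, adjusted p = 1.95e-08) among rises. EPHB2 (0.73, adjusted p = 0.037) kept its call under 9 of 20 alternatives and NRP1 (0.51, adjusted p = 1.98e-07, at the threshold) under 13.

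Salmon also divides a gene's reads among its transcripts, and the shares of TPM are given as a description with no test. Between MCF10A-YAP5SA and control the leading protein-coding transcript differed for SEMA3F, SEMA4C and PLXNB1, or its share moved by over 25 points for PLXNB3, and between MCF10A-TRAM2 and control it differed for SEMA4F. For PLXNB1 this concerns minor transcripts: the protein-coding ones held 0.98 of 36.4 TPM over all samples. PLXNB1-201 held 0.97% of the gene in MCF10A-YAP5SA and 1.99% in control. SEMA4C-201 held 47.2% and 76.8% of SEMA4C in MCF10A-YAP5SA, 28.7% to 50.2% in MCF10A-TRAM2, and 28.9% and 31.9% in control. PLXNB3-204 held 53.4% and 0% in MCF10A-YAP5SA, and 55.9% and 62.7% in control, so that the samples of a group disagreed more than the groups. The 6 SEMA3A counts of MCF10A-YAP5SA were all assigned to SEMA3A-204, and the protein-coding TPM of EFNB2 lay in EFNB2-202.

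Lists of signalling partners and related families show what surrounded these ligands and receptors. Of 23 tested partners of plexins and semaphorins, 13 rose and 1 fell in MCF10A-YAP5SA, beside 15.3% higher and 14.1% lower over all genes tested, with a median log2 fold change of 0.54. RND3, a GTPase without GTP hydrolysis that binds plexins, was at 155 CPM in MCF10A-YAP5SA, against 42.5 in MCF10A-TRAM2 and 46.3 in control (1.74 ± 0.08, adjusted p = 7.44e-10, edgeR). MRAS, at 12.9 CPM in MCF10A-YAP5SA and 1.80 in control, rose by 2.85 ± 0.19 on the log2 scale. MET, a kinase that plexin B proteins can pair with, rose by 0.98 ± 0.05, and ITGB1, the integrin subunit through which SEMA7A signals, by 0.91 ± 0.05 (adjusted p = 1.59e-09 and 4.71e-09). Of 19 tested partners of Eph receptors and ephrins, 4 rose and 4 fell (42.1% called, beside 29.4% of all genes tested). ADAM10, the protease that sheds ephrins, rose by 1.03 ± 0.05 (adjusted p = 3.83e-10), and ITSN1 by 0.79 ± 0.05. NGEF, an exchange factor that binds EPHA4, was at 0.98 CPM in MCF10A-YAP5SA, against 20.4 in MCF10A-TRAM2 and 21.02 in control (-4.43 ± 0.21, adjusted p = 5.26e-10), and RASA1 fell by 0.73 on the log2 scale.

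Of 5 tested VEGF ligands and receptors 2 fell, beside 14.1% of all genes, and none rose: VEGFA, an NRP1 ligand, was at 37.9 CPM in MCF10A-YAP5SA, against 200 in MCF10A-TRAM2 and 162 in control (-2.10 ± 0.20, adjusted p = 0.00021, edgeR), and VEGFC, an NRP2 ligand, at 22.8 CPM in MCF10A-YAP5SA and 32.6 in both MCF10A-TRAM2 and control (-0.52 ± 0.09, adjusted p = 0.0003). Without MCF10A-YAP5SA B or without control A-C, the estimate of VEGFC was under 0.5 in size and the call was lost. Of 15 tested genes of other guidance families, the netrin, Slit, Robo, RGM and FLRT families and their receptors, 6 rose and 7 fell. That was 86.7% called, beside 29.4% of all genes tested. UNC5B, a netrin receptor, was at 0.16 CPM in MCF10A-YAP5SA, against 27.7 in MCF10A-TRAM2 and 25.2 in control, and FLRT3 at 20.4 CPM in MCF10A-YAP5SA, against 96.5 in MCF10A-TRAM2 and 92.7 in control (both adjusted p = 1.35e-11, edgeR). SLIT2 was at 39.7 CPM in MCF10A-YAP5SA, against 4.32 in MCF10A-TRAM2 and 2.92 in control, and FLRT2, a membrane ligand of Unc5 receptors, at 43.7 CPM in MCF10A-YAP5SA, against 5.43 in MCF10A-TRAM2 and 5.09 in control (adjusted p = 1.52e-10 and 3.39e-10). No gene of these lists was called between MCF10A-TRAM2 and control by edgeR in the 8 samples, where an unadjusted p was under 0.05 for 7 of 19 Eph partners, 2 of 23 plexin partners, 0 of 5 VEGF genes and 3 of 15 other guidance genes, beside 12.6% of all genes.

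**Figure D4:**
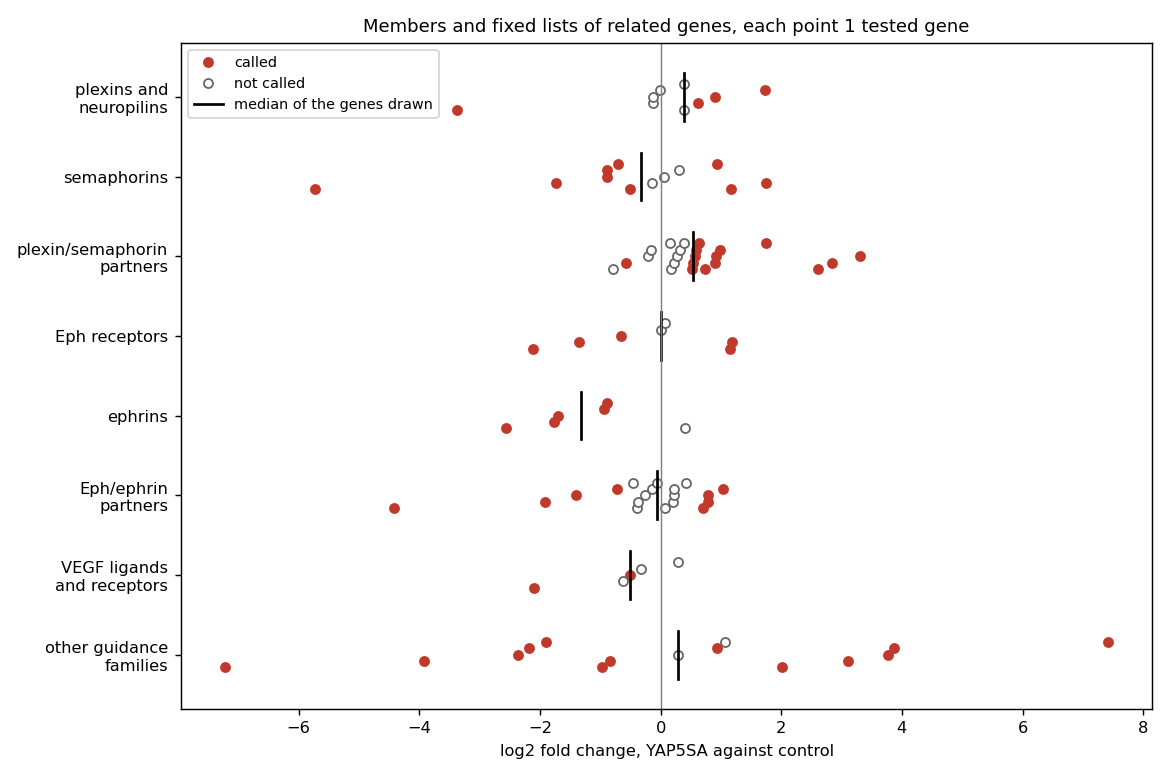
Log2 fold change between MCF10A-YAP5SA and control (horizontal axis) for each tested gene of the families and of the lists of related genes (rows); red points were called, open points were not, and black bars are medians of the genes drawn (PLXNA4 is left out). Ephrins and the VEGF ligands and receptors lie mostly to the left, partners of plexins and semaphorins mostly to the right, and the other rows spread to both sides.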

How the data were processed

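The authors trimmed reads with cutadapt and quantified transcripts with Salmon, and deposited for each library an estimated count (which need not be whole), a TPM value and an effective length per transcript. No source used here gives versions, a genome build or how strand was handled; a TruSeq RNA kit is named in the labels, a stranded version of it in the paper. The deposited estimated counts were summed per gene and rounded. Control libraries were compared by chi-square, using genes that averaged 50 counts or more and were whole within 0.001 in all 10 libraries: A with C gave 1.002 per degree of freedom and B with D 0.9993, other control pairs 1.157 to 1.24 (over all counts, where fractional assignment adds spread, 1.229 and 1.222 against 1.421 to 1.491). Filtering by filterByExpr, TMM and the test used edgeR 4.0.16 (glmQLFit, robust; glmQLFTest; R 4.3.3), in 1 fit of 8 samples, with Benjamini-Hochberg adjustment over 15768 genes; standard errors came from the fold change and its F statistic. The fit was tested on simulated counts. Deposited TPM values, summed over protein-coding transcripts, were used to compare levels between genes, since short non-coding transcripts dominate some sums. Guides were matched to GRCh37, positions taken from GENCODE.

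Given by sample or as a group's range were, in each family, up to 5 called genes per direction at 1 CPM or more in MCF10A-YAP5SA against control and the gene with the highest TPM. Of each related list, up to 4 called genes with the smallest adjusted p were given, as group means or log2 fold changes. Transcripts were named for genes at 1 TPM or more whose leading isoform differed or whose share moved by over 25 points. Further genes of the families were added to account for all. The genes, lists and tests were chosen with earlier results of these data known. Alternatives were other tools, scalings, filters, gene summaries, runs and left-out samples.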

Additional observations from a re-analysis of the deposited data

Results flagged for a closer look

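In EPHB2, MCF10A-TRAM2 B was far from the other 3 MCF10A-TRAM2 samples, at 34.65 CPM against 19.1 to 21.6 (a gap of 0.837 of the range, over Dixon's 95% critical value). In PLXND1, MCF10A-TRAM2 A stood apart at 9.014 CPM, against 7.83 to 7.94 (0.906 of the range). Chance marks about 1 in 20 such groups, and 35 were examined.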

How the results depend on the processing

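In MCF10A-YAP5SA against control 19 to 24 of the family genes were called under 20 alternatives, and against MCF10A-TRAM2 20 to 24; no called gene changed sign. For MCF10A-TRAM2 against control the count was 1 (SEMA3A) with DESeq2, with no filter on low counts, with the 10 libraries as deposited, with the 10 libraries and a replicate block, and in the first run only, and 0 to 1 when a sample was left out; in the second run only, an alternative added after seeing the data, it was 0. Letters A to D did not pair the samples (same-letter deviations correlated at -0.0313 to 0.0352), and the replicate block called 24 genes in MCF10A-YAP5SA against control and 22 against MCF10A-TRAM2. Of the related lists, 1 plexin and semaphorin partner (L1CAM) was called in MCF10A-TRAM2 with DESeq2 and with the replicate block, and 1 other guidance gene (SLIT2) with no filter; the VEGF list in MCF10A-YAP5SA held 1 to 2 calls when a sample was left out. The cause of these shifts was not tested. Over genes whole within each pair of control libraries, B with D gave a chi-square of 1.048 per degree of freedom (p = 0.02083), so the sum of those 2 libraries depends on the genes used. In MCF10A-YAP5SA against control, EFNA1, EPHA4, EPHB3 and PLXNB3 lost their call with length-scaled counts, where EPHB6 gained one, and EFNA1 and SEMA4C lost theirs with protein-coding transcripts only. With 2 samples in 2 groups, small changes of low genes are beyond reach.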
